A study of Mus musculus with 2 samples.

Results

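The genes described here are 8 genes of polyamine metabolism in the mouse adrenal gland: the antizymes Oaz1 and Oaz2, the antizyme inhibitor Azin1, and the enzymes Odc1, Amd1, Srm, Sms and Sat1. They were chosen by name, as every transcript model assigned to one of these 8 symbols, and the choice was made with their read counts in these same libraries known, so the levels and the ratio between libraries are a description. They are 8 of the 16674 annotated genes with reads, with 88 of 88152 transcript models in the first library and 76 of 92074 in the second. Total RNA of adrenal glands from wild-type C57BL/6J mice was sequenced as long reads, in which a cDNA molecule is read along its length so that 1 read can show which exons were joined. There is 1 group of 2 libraries, replicates 1 and 2, from different biosamples. A free-text label calls the animals female, the sex field was left unfilled, and age is given as unknown. No treatment, genotype change or second group exists, so nothing below compares conditions and no p-value is given.

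Polyamines (putrescine, spermidine and spermine) are small, positively charged molecules that bind RNA and that growing and secreting cells need. Ornithine decarboxylase (Odc1) makes putrescine, spermidine synthase (Srm) and spermine synthase (Sms) add aminopropyl groups supplied by S-adenosylmethionine decarboxylase (Amd1), and spermidine/spermine N1-acetyltransferase (Sat1) marks polyamines for export or breakdown. Antizymes close a feedback loop: polyamines promote a shift of the ribosome by a single base on antizyme mRNA, the shifted frame encodes full-length antizyme, and antizyme carries ornithine decarboxylase to the proteasome. Azin1 resembles ornithine decarboxylase without its activity and binds antizyme in its place.

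The frameshift site is shown first because the counted models and the annotation differ there. Each line runs 5′ to 3′ on the plus strand. The sequences are of GENCODE M21 transcripts on mm10. Oaz1 is the stretch chr10:80828262-80828348 and Oaz2 the stretch chr9:65686239-65686325, both inside exon 2 and coding. Capitals mark the stop codon of the first reading frame, or, in the annotated transcripts Oaz1-202 and Oaz2-206, what is left of it.
Oaz1: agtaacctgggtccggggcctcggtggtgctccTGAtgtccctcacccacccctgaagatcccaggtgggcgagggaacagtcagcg
Oaz1-202: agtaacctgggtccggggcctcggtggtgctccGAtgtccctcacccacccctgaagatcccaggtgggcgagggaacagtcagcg
Oaz2: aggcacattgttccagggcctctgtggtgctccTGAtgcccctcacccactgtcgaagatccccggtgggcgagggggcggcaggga
Oaz2-206: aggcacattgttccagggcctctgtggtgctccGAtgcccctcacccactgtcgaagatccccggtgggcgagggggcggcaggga

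In the chain of exons that the reads showed, the first frame of Oaz1 ran for 68 codons from its first annotated start codon to the TGA. The frame that begins 1 base later ran on for 159 codons to a TAG, which makes 227 codons in all. For Oaz2 the corresponding numbers were 32 codons to the TGA and 157 codons to a TAA, 189 in all. The 87-base windows of the 2 genes were identical at 66 positions (75.9%), and the longest identical run, of 15 bases, held the stop codon. Of the 33 bases before the stop codon 26 were identical, and of the 51 bases after it 37.

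GENCODE leaves a gap in the exon at this site, which keeps the annotated coding sequence in 1 frame. In Oaz1, 4 of 7 annotated transcripts have such a gap, 3 of them a gap of 1 base at position 80828295, the T of the TGA, and Oaz1-201 a gap of 4 bases at 80828292-80828295. In Oaz2, 3 of 7 transcripts have it, 2 with 1 base missing at 65686272 and Oaz2-201 with 4 bases missing at 65686269-65686272. The counted models run through the gap. In Oaz1, 3388 reads of replicate 1 and 55 of replicate 2 lay on models that cover the base without a break, and in Oaz2 146 and 85 did. The shortest junction in any counted model of any gene was 31 nt, so these models could not have shown a gap of 1 or 4 bases, and no share of molecules with it can be given.

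**Figure D1:**
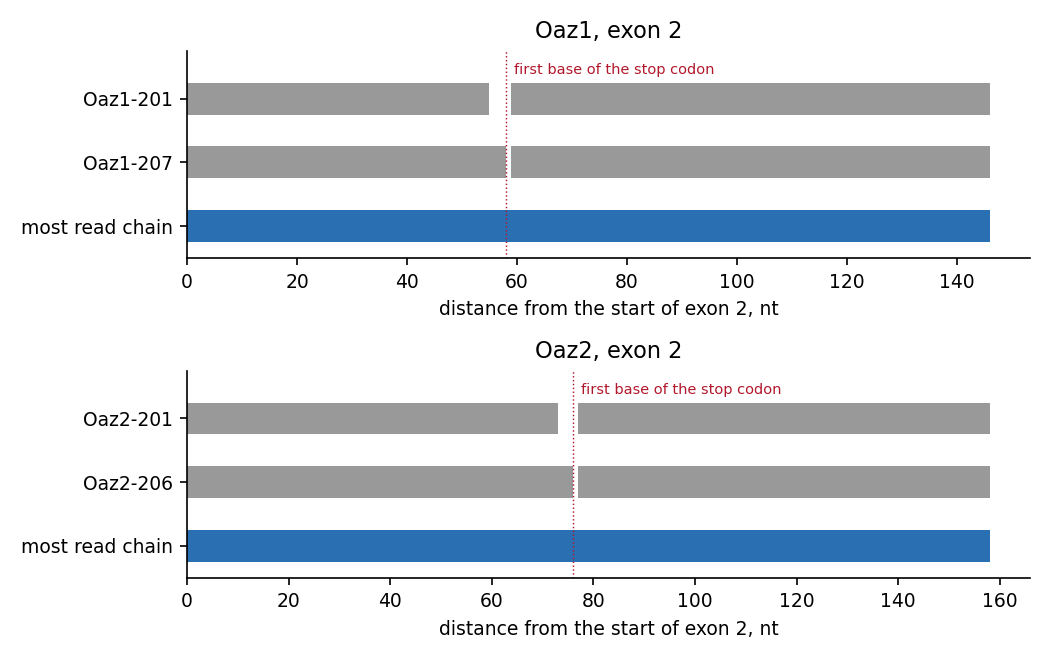
Exon 2 of Oaz1 (146 nt) and Oaz2 (158 nt), drawn by distance from its start in nt. Grey bars are annotated transcripts, with gaps of 4 bases (the upper bar of each panel) or 1 base, the blue bar is the chain with most reads, and the dotted line marks the first base of the stop codon, which the gaps leave out and the read chain keeps.

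Almost no antizyme read was counted on an annotated transcript. The 5-exon chain with the uninterrupted exon 2 (chr10:80828237-80828382) held 3229 of 3402 Oaz1 reads in replicate 1 (94.9%, 95% Clopper-Pearson interval 94.1 to 95.6%) and 41 of 56 in replicate 2 (73.2%, 59.7 to 84.2%). It was filed as known splice sites in a new combination. That class held 96.9% and 82.1% of Oaz1 reads, and 90.6% and 88.4% of Oaz2 reads. Over all genes it held 2.90% of reads in replicate 1 and 6.56% in replicate 2. Annotated Oaz1 transcripts held 0 reads in replicate 1 and 2 in replicate 2, both on Oaz1-206, a transcript with a retained intron. Oaz2 likewise had 0 and 2, on Oaz2-205, also with a retained intron. Intervals here and below cover the error of counting alone, because amplified reads need not stand for separate molecules.

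In both libraries the Oaz1 chain was that of Oaz1-201 and Oaz1-207 once gaps of at most 10 nt were closed. For Oaz2 the chain with an uninterrupted exon 2 (chr9:65686196-65686353) was that of Oaz2-201 and Oaz2-206, with 127 of 149 reads in replicate 1 (85.2%, 78.5 to 90.5%) and 71 of 86 in replicate 2 (82.6%, 72.9 to 89.9%). In 4733 genes both libraries had 10 reads or more and there were at least 2 models; of these, the most used model was not an annotated one in 780 (16.5%). Of the 7 polyamine genes in that set it was not annotated in 2, Oaz1 and Oaz2.

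Levels are given as reads and as counts per 1000000 reads of the library (CPM), with exact 95% Poisson intervals. Each read counts once whatever its length, and no value was divided by length. The ratio between the libraries moved with model length, as given below, so the levels of different genes are not compared. Shares and ranks of genes below describe reads, not amounts of RNA. Replicate 1 held 810239 reads and replicate 2 held 587861, so 3 reads, the limit that a count of 0 allows, were 3.70 and 5.10 CPM. The libraries differed in length: the annotated model of the median read was 1648 nt long in replicate 1 against 3052 nt in replicate 2, and unspliced models held 14.4% and 7.89% of reads. Markers of the adrenal cortex (6 of 6) and of chromaffin cells (5 of 5) were detected in both libraries, with 77322 and 90942 CPM and with 6193 and 8495 CPM in sum. The 3 kidney markers Umod, Slc12a1 and Slc34a1 had 0 reads in both. All 3 erythroid markers summed to 1369 and 155 CPM, the 3 macrophage markers to 973 and 189 CPM, and the 3 adipocyte markers to 126 and 35.7 CPM; the part of these cells in the values below was not tested. In tissue, fewer cells of a type and less RNA per cell cannot be told apart.

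The 8 genes together held 4001 reads in replicate 1 (0.494% of the library) and 434 in replicate 2 (0.0738%). Oaz1 accounted for 85.0% of them in replicate 1 and 12.9% in replicate 2. Without Oaz1 the remaining 7 genes held 599 and 378 reads. Ratios between the libraries were taken after TMM scaling, as log2 of replicate 2 over replicate 1 with 0.5 reads added, and a gene was counted past the fold at 2-fold or more. Of the 8 genes, 5 were at least 2-fold higher in replicate 1, where 36.6% of the 9809 genes with at least 10 reads were. Another 2 were at least 2-fold higher in replicate 2, against 33.2% of all genes. The median log2 ratio was -1.55 over the 8 genes and -0.01 over all. The ratio compares 2 libraries and has no replicate check.

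**Figure D2:**
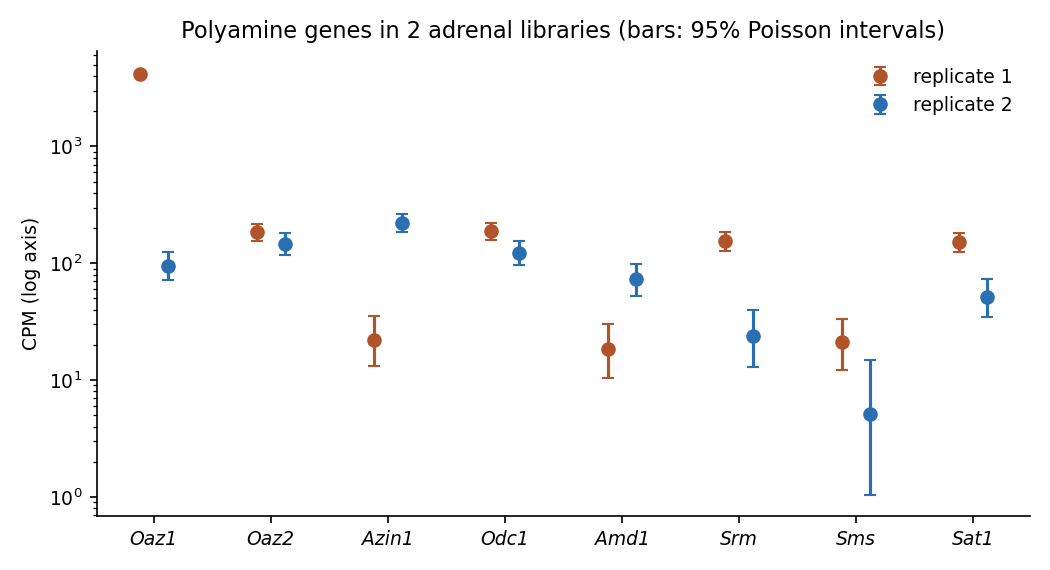
CPM of the 8 polyamine genes (log axis) in replicate 1 (brown) and replicate 2 (blue), with exact 95% Poisson intervals. Oaz1 lies at 4199 and 95.3 CPM, while Oaz2 lies at 184 and 146 CPM with overlapping intervals.

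Oaz1 (ENSMUSG00000035242.15, chr10:80826656-80829290, plus strand), the main antizyme, had 3402 reads in replicate 1, or 4199 CPM (4059 to 4342), and 56 reads in replicate 2, or 95.3 CPM (72.0 to 124). It was the 14th most read gene of replicate 1 and ranked 1984 in replicate 2, far apart in the 2 libraries. The fold was 61.1 (46.9 to 81.1) higher in replicate 1, a log2 ratio of -5.92, and the mean level was 2147 ± 2902 CPM (SD, n = 2). The SD exceeds the mean. The 3 genes closest to Oaz1 in log2(CPM + 1) over both libraries were Prdx1 with 4588 and 112 CPM, Rpl41 with 3500 and 91.9 CPM, and Chchd2 with 2476 and 80.0 CPM, at distances of 0.27, 0.27 and 0.80; with 2 libraries this is a description only.

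Oaz2 (ENSMUSG00000040652.16, chr9:65668001-65690300, plus strand), the second antizyme, had 149 reads or 184 CPM (156 to 216) in replicate 1 and 86 reads or 146 CPM (117 to 181) in replicate 2. Its intervals overlapped, and it was the only one of the 8 genes under 2-fold, with 1.74-fold (1.33 to 2.30) higher scaled counts in replicate 1 and a mean of 165 ± 26.6 CPM (SD, n = 2). Under scaling by total counts its log2 ratio was -0.33 in place of -0.80.

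Azin1 (ENSMUSG00000037458.15, chr15:38487427-38519266, minus strand), the antizyme inhibitor, went the other way. It had 18 reads or 22.2 CPM (13.2 to 35.1) in replicate 1 and 130 reads or 221 CPM (185 to 263) in replicate 2. That is 7.18-fold (4.37 to 12.5) higher in replicate 2, with a mean of 122 ± 141 CPM (SD, n = 2). The intervals lie far apart, with replicate 1 low.

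Odc1 (ENSMUSG00000011179.8, chr12:17544794-17551505, plus strand), the enzyme that antizymes bind, had 152 reads or 188 CPM (159 to 220) in replicate 1 and 72 reads or 122 CPM (95.8 to 154) in replicate 2. Replicate 1 was higher by 2.12-fold (1.59 to 2.85), just past the fold used, and the mean was 155 ± 46.0 CPM (SD, n = 2). With total counts the log2 ratio of -1.08 became -0.61, under 2-fold. Before length was taken into account, Odc1 and Oaz2 were the genes whose levels differed least between the libraries. With length, as given below, Amd1 and Srm differed least, at log2 ratios of 0.08 and -0.10.

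Amd1 (ENSMUSG00000075232.5, chr10:40287458-40302186, minus strand), which makes the aminopropyl donor, had 15 reads or 18.5 CPM (10.4 to 30.5) and 43 reads or 73.1 CPM (52.9 to 98.5). It was higher in replicate 2 by 2.85-fold (1.55 to 5.52), with a mean of 45.8 ± 38.6 CPM (SD, n = 2). Together with Azin1 it made up the genes past the fold in replicate 2. Srm (ENSMUSG00000006442.10, chr4:148591503-148594993, plus strand), the spermidine synthase, had 125 reads or 154 CPM (128 to 184) and 14 reads or 23.8 CPM (13.0 to 40.0). Here replicate 1 was 8.98-fold (5.16 to 16.9) higher, and the mean was 89.0 ± 92.2 CPM (SD, n = 2). Replicate 1 was the low library for Amd1 and the high one for Srm, at lengths of 3204 and 1338 nt; the values with length taken into account are given below.

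Sms (ENSMUSG00000071708.11, chrX:157443855-157492287, minus strand), the spermine synthase, was the most thinly covered of the 8, with 17 reads (interval 12.2 to 33.6 CPM) and 3 reads or 5.10 CPM (1.05 to 14.9). The ratio of 5.70 (1.65 to 30.4) higher in replicate 1 rests on those 3 reads. Its mean was 13.0 ± 11.2 CPM (SD, n = 2). Sat1 (ENSMUSG00000025283.15, chrX:155213132-155216449, minus strand), the acetyltransferase, had 123 reads or 152 CPM (126 to 181) and 30 reads or 51.0 CPM (34.4 to 72.9). It was 4.12-fold (2.75 to 6.37) higher in replicate 1, with a mean of 101 ± 71.3 CPM (SD, n = 2).

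Model length moved with these ratios. A lowess curve of the log2 ratio on length (of the annotated model with most reads), drawn through all genes with at least 20 reads, stood at -3.63 for Oaz1 (1075 nt), -3.19 for Sat1 (1275 nt), -3.02 for Srm (1338 nt) and -1.43 for Oaz2 (1844 nt). At the longer Amd1 (3204 nt) and Azin1 (4871 nt) it stood at 1.41 and 1.16. With the curve subtracted, Srm came to -0.10, Amd1 to 0.08 and Odc1 to -0.78, all under 2-fold. Oaz1 kept -2.29, Azin1 1.65 and Sms -3.83. The Sms value uses the 3717 nt of Sms-201, on which only 2 of its 17 reads of replicate 1 lie, while 12 lie on a piece of 355 nt, so it is not meaningful. Sat1 turned from -2.03 to 1.16, and Oaz2 from -0.80 to 0.63. The Sat1 value uses the 1275 nt of Sat1-205, which held 62 of 123 reads of replicate 1 but 5 of 30 of replicate 2. In replicate 2, 15 of the 30 lay on a chain of 2524 nt, so that length does not stand for both libraries. Past the fold were then 2 genes higher in replicate 1, Oaz1 and Sms, and 2 higher in replicate 2, Azin1 and Sat1, where 24.5% and 24.4% of the 9174 genes with a length were. In these counts Sms and Sat1 carry the limits on length just given. Oaz1 was given an annotated 1075 nt, while its counted main chain had 790 nt in replicate 1 and 1043 nt in replicate 2. Azin1-201, whose 4871 nt were used for Azin1, held 7 of 18 reads of replicate 1 and 77 of 130 of replicate 2. For Oaz1 and Oaz2 the subtraction used the annotated length with the frameshift gap closed, a setting chosen after the data were seen. The only annotated models counted for them, with retained introns of 2526 and 1095 nt in all, gave -6.42 and 2.79.

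**Figure D3:**
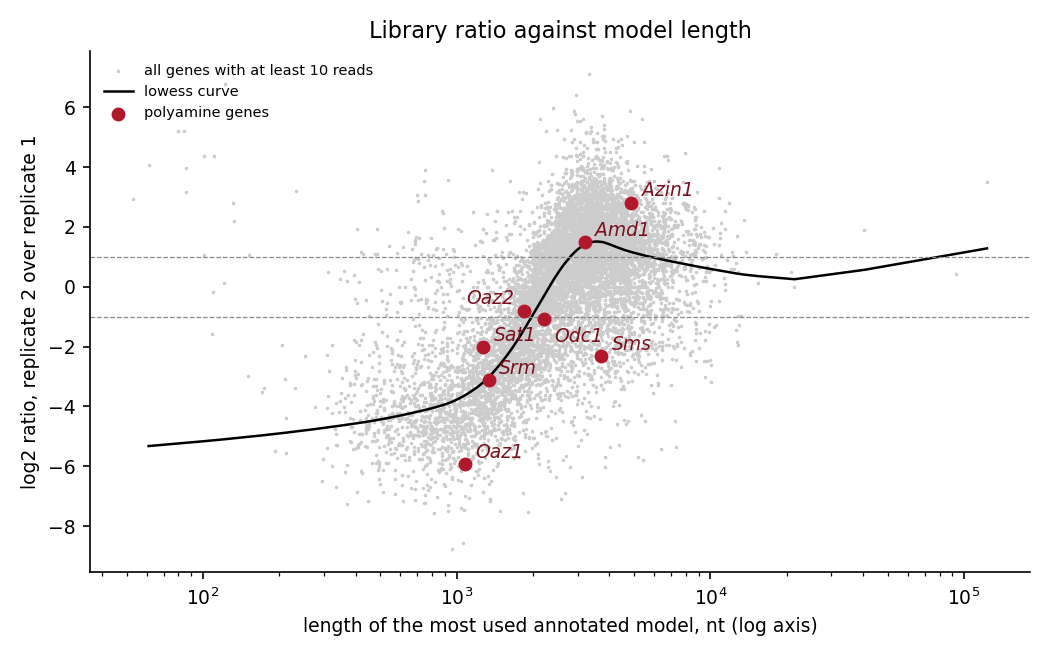
Log2 ratio of replicate 2 over replicate 1 against model length in nt, that of the annotated model with most reads (log axis), for genes with at least 10 reads (grey), with the lowess curve (black), dashed lines at 2-fold and the 8 polyamine genes in red. Amd1 and Srm lie on the curve, Oaz1 lies below it at -5.92, Sms below it at -2.33, and Azin1 above it at 2.81.

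The exon chains were then compared. In the 7 polyamine genes that had 10 reads or more in both libraries, the share of the most used model differed by 20 percentage points or more in 5, where 38.2% of all 4733 such genes did (1806). The intervals of the 2 libraries did not overlap in Oaz1 and Sat1 and overlapped in the other 5. How many of all 4733 genes had intervals apart was not counted, so this is no trait of the polyamine genes. When single-read models were left out 2 of the 7 were shifted, and with multi-exon models only 3 were, both settings chosen after the data were seen. The share of all genes was not computed in these settings, so the lower counts cannot be set against it.

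**Figure D4:**
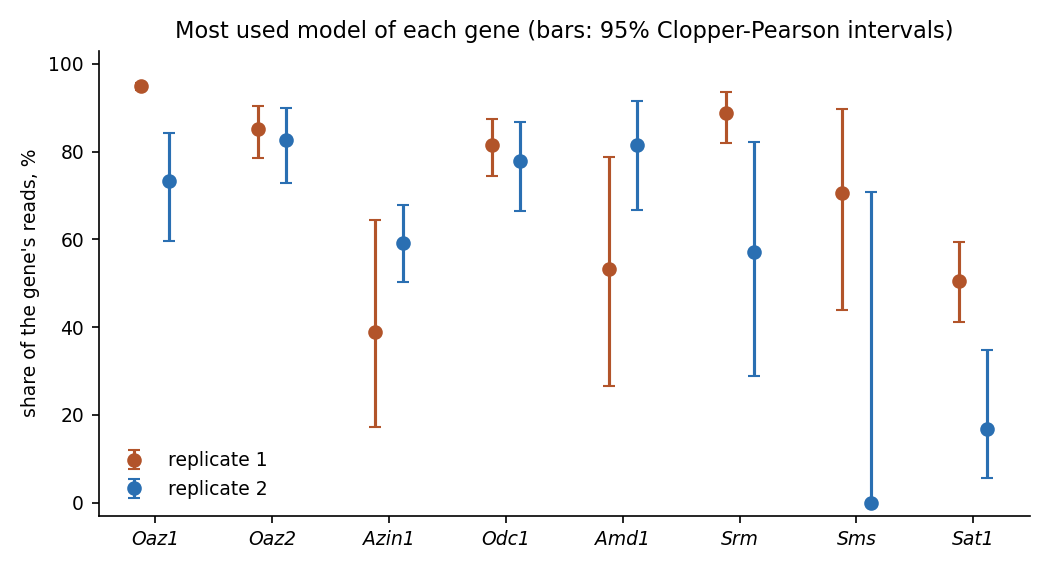
Share of each gene's reads (in %) on its most used model over both libraries, in replicate 1 (brown) and replicate 2 (blue), with 95% Clopper-Pearson intervals. Oaz2 (85.2% and 82.6%) and Odc1 (81.6% and 77.8%) lie level, and Sat1 lies at 50.4% and 16.7%; Sms has 17 and 3 reads.

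Beyond the main chain, Oaz1 reads were spread over 26 models in replicate 1 and 9 in replicate 2. No read of replicate 1 retained the 1331-nt first intron (chr10:80826906-80828236) whole, out of 3353 reads that spliced or kept it (upper limit of the interval 0.110%). In replicate 2, 8 of 51 kept it (15.7%, 7.02 to 28.6%), so the intervals lie apart. The short introns 2, 3 and 4 (78, 77 and 74 nt) were kept by 2, 1 and 17 reads in replicate 1 and by 3, 0 and 3 in replicate 2. Whether the longer molecules of replicate 2 bear on the kept intron was not tested. These counts of introns, and those of small shifts in splice sites below, were made after the chains had been seen.

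Small shifts of a splice site recurred in several of the genes. In 3 genes a coding exon could begin a few bases later, by a multiple of 3, which leaves the reading frame as it is. The lines show the last 18 bases of the exon before and the start of the exon after, 5′ to 3′ on the gene's strand, from GENCODE M21 transcripts on mm10. Capitals are the bases that the shorter form leaves out.
Oaz1 acceptor: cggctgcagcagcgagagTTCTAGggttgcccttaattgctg
Oaz2 acceptor: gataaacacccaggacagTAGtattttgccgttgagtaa
Azin1 acceptor: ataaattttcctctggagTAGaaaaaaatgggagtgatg

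In Oaz1 the exon 2 start at 80828243 in place of 80828237, annotated in Oaz1-202, was used by 33 of 3386 reads in replicate 1 (0.975%, 0.672 to 1.37%) and 4 of 47 in replicate 2 (8.51%, 2.37 to 20.4%). In Oaz2 the unannotated start at 65686199 in place of 65686196 was used by 6 of 142 reads (4.23%, 1.57 to 8.97%) and 6 of 81 (7.41%, 2.77 to 15.4%). The antizyme inhibitor used its alternative most: in Azin1 the start at 38492356 in place of 38492359 was taken by 3 of 15 reads (20.0%, 4.33 to 48.1%) and 24 of 124 (19.4%, 12.8 to 27.4%). That junction is annotated, and the libraries gave shares within counting error of each other. Odc1 had a shift of 3 nt in its 5′ untranslated region, unannotated, in 5 of 138 reads (3.62%, 1.19 to 8.25%) and 7 of 68 (10.3%, 4.24 to 20.1%).

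Other shifts in Oaz1 were not multiples of 3. A donor 4 nt further at 80828800, not annotated, was used by 46 of 3350 reads (1.37%, 1.01 to 1.83%) and 3 of 53 (5.66%, 1.18 to 15.7%). A donor 4 nt further at the end of exon 2 had 18 reads in replicate 1 and 0 in replicate 2, and an annotated acceptor 22 nt further at 80828893 had 24 and 0. At 52 and 50 reads across these sites, replicate 2 allowed shares of up to 6.85% and 7.11% (upper limits of the intervals), so a difference between libraries was not detectable at this depth.

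Whole cassette exons were few. The rule (at least 10 reads with the exon or skipping it, 2% to 98% inclusion) left 11 exon forms in 5 genes, of which 4 were Oaz1 exons with the shifted edges above or others, and 4 were Amd1 exons skipped by 1 read of replicate 2 each. The 86-nt exon 4 of Oaz2 (chr9:65688821-65688906), which is coding, was included in 137 of 145 reads (94.5%, 89.4 to 97.6%) and 81 of 82 (98.8%, lower limit 93.4%). A 160-nt exon ahead of the Azin1 coding sequence (chr15:38507187-38507346, in Azin1-203 and Azin1-204) was included in 3 of 14 reads (21.4%, 4.66 to 50.8%) and 5 of 122 (4.10%, 1.34 to 9.31%). Both pairs of intervals overlap.

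Azin1 read chains were the most varied in replicate 2, with 26 models, 19 of them of a single read. Azin1-201 held 7 of 18 reads (38.9%, 17.3 to 64.3%) and 77 of 130 (59.2%, 50.3 to 67.8%). The chain that differs from it by the 3-nt shift held 2 and 20 reads, and Azin1-203, with the 160-nt exon, 2 and 4. Odc1 showed much the same use of its main transcript in both libraries. Odc1-201, of 12 exons, held 124 of 152 reads (81.6%, 74.5 to 87.4%) and 56 of 72 (77.8%, 66.4 to 86.7%), and all 9 of its coding introns were spliced in 88.2% and 88.9% of reads. Its 81-nt intron 9 was kept by 9 of 146 reads in replicate 1 (6.16%, 2.86 to 11.4%) and 0 of 70 in replicate 2 (upper limit 5.13%).

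Amd1-201, of 8 exons, held 8 of 15 reads (53.3%, 26.6 to 78.7%) and 35 of 43 (81.4%, 66.6 to 91.6%). Unspliced models held 5 of the 15 and 2 of the 43. Srm-201 held 111 of 125 reads (88.8%, 81.9 to 93.7%) and 8 of 14 (57.1%, 28.9 to 82.3%), with 0 and 2 unspliced reads. In Sms the most used model was a piece of 3 exons and 355 nt with 12 of 17 reads of replicate 1, and complete Sms-201 chains of 11 exons numbered 2 in replicate 1 and all 3 reads of replicate 2. The 2 libraries thus hold only 5 complete spermine synthase chains.

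Sat1 had the largest shift of the most used model among the 7 genes. Its intron 3 (chrX:155214135-155215600, 1466 nt) holds a 110-nt exon (chrX:155215121-155215230), annotated in Sat1-207 as a transcript subject to nonsense-mediated decay; inclusion of such a poison exon is known to lower the yield of the enzyme. The line shows the last 24 bases of exon 3 and the first 30 of the 110-nt exon, 5′ to 3′ on the minus strand (within chrX:155215201-155215624), with the annotated stop codon in capitals. This stop ends the reading frame after 71 codons, where Sat1-201 has 171.
Sat1-207: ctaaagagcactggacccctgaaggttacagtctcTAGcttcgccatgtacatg

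The poison exon was rare among the counted reads of replicate 1, and replicate 2 had too few informative reads to tell. Of the reads that crossed intron 3 it was included by 2 of 44 in replicate 1 (4.55%, 0.555 to 15.5%) and 0 of 25 in replicate 2 (upper limit 13.7%). Reads that keep the intron whole neither splice in nor skip the exon. Of reads that did either, it was included by 2 of 43 (4.65%, 0.568 to 15.8%) and 0 of 3 (upper limit 70.8%). Intron 3 was spliced out in 41 of the 44 (93.2%, 81.3 to 98.6%) and in 3 of the 25 (interval 2.55 to 31.2%). It was kept whole by 0 of the 44 (upper limit 8.04%) and by 21 of the 25 (84.0%, 63.9 to 95.5%). So among reads that crossed the whole intron the libraries gave opposite pictures, beyond counting error. Left out of these counts are reads that began inside intron 3, 77 of 123 in replicate 1 and 5 of 30 in replicate 2. Those reads keep the 3′ part of the intron, so the contrast holds for crossing reads only. Of the 21 reads 20 were spliced at other introns, and 15 lay on 1 unannotated chain of 5 exons and 2524 nt that had 0 reads in replicate 1. The spliced Sat1-201 chain is 1162 nt long, the shorter of the forms, and it was read 41 times in the library with shorter models and 3 times in the other. What part length has in this was not tested.

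A further set of Sat1 reads began inside intron 3. Sat1-205, annotated as a retained-intron transcript whose 5′ end lies at 155214904, within intron 3, was the most used Sat1 model of the 2 libraries summed, with 62 of 123 reads (50.4%, 41.2 to 59.5%) and 5 of 30 (16.7%, 5.64 to 34.7%). In replicate 2 alone the chain that keeps intron 3 came first, with 15 of the 30 (interval 31.3 to 68.7%). With unspliced reads included, 77 of the 123 (62.6%, 53.4 to 71.2%) and 5 of the 30 (16.7%) began in this intron. Models on the opposite strand over Sat1 held 74 reads in replicate 1 and 1 in replicate 2. The strand of unspliced reads has no splice site to check it, and the part of such reads in the Sat1 counts was not tested. Reads with all 5 Sat1 introns removed were 41 of 123 (33.3%, 25.1 to 42.4%) and 3 of 30 (interval 2.11 to 26.5%).

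**Figure D5:**
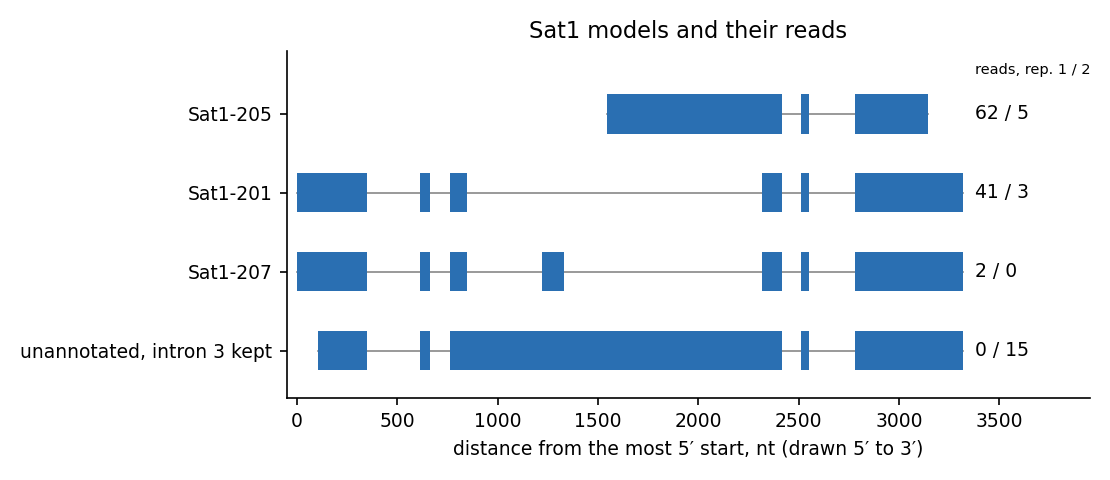
Exons (bars) and introns (lines) of the 3 annotated Sat1 models with reads and of the most read unannotated chain, by distance in nt from the most 5′ start, with reads in replicate 1 and replicate 2 at the right. Sat1-205 begins inside intron 3, Sat1-207 holds the 110-nt exon, and the chain that keeps intron 3 has 0 and 15 reads.

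The other genes of the pathway were taken from a list of 28. Reads were found for 23 and none for 5: Oaz3, Satl1, Arg1, Arg2 and Slc12a8. Of the 19 genes with at least 10 reads, 12 were at least 2-fold higher in replicate 1 and 2 in replicate 2, beside the 36.6% and 33.2% of all genes given above, and 5 were neither; their median log2 ratio was -1.45. With the length curve subtracted, a setting chosen after the data were seen, 5 of the 18 with a length were 2-fold higher in replicate 1 and 3 in replicate 2, and the median was -0.27. Of the 12, only Azin2 (23 and 6 reads), Mri1 (35 and 8) and Apip (50 and 1) stayed 2-fold higher in replicate 1. Sat2 (9 and 1 reads) and Agmat (9 and 3) turned past 2-fold the other way. All of these ratios rest on few reads in replicate 2. Slc7a1 had no length. Of the 7 genes with at least 100 reads, Eif5a, whose protein carries hypusine made from spermidine, had 716 CPM in replicate 1 and 80.0 in replicate 2, which placed it 12.4-fold (9.21 to 17.1) higher in replicate 1; with length its log2 ratio went from -3.62 to -0.61, under 2-fold. Mat2a and Mat2b, which make S-adenosylmethionine, had 471 and 415 CPM and 143 and 59.5 CPM. Mat2a was under 2-fold, at a log2 ratio of -0.65 that became -1.66 with length. Mat2b was 3.33-fold (2.27 to 5.01) higher in replicate 1, and its log2 ratio of -1.72 became -0.64 with length, under 2-fold.

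Ahcy, which clears S-adenosylhomocysteine, had 50.6 and 145 CPM, 2.06-fold (1.40 to 3.07) higher in replicate 2; its log2 ratio of 1.03 became 0.49 with length, under 2-fold. Mtap, which salvages the by-product of spermidine and spermine synthesis, had 50.6 and 117 CPM and stayed under 2-fold at 1.67 (1.12 to 2.53). Slc3a2, an amino acid transporter subunit, had 374 and 276 CPM and was under 2-fold as well. Atp13a2, a lysosomal polyamine exporter, had 13 and 92 reads, 7.04-fold (3.92 to 13.7) higher in replicate 2, and stayed past 2-fold with length at a log2 ratio of 1.33. The processed pseudogene Oaz1-ps had 26 reads in replicate 1 and 1 in replicate 2, Sms-ps 2 and 0, and Oaz2-ps 0 in both; reads of a near-identical copy may be shared with the parent gene, and these counts are small beside those of Oaz1.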

How the data were processed

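The authors deposited, for each of the 2 libraries, raw read counts per transcript model and a model annotation; per the file headers and the notes beside the files, TALON, which assigns reads to annotated or unannotated models, was run separately for each library (mm10, GENCODE M21). Aligner, read correction, tool versions, cDNA preparation and platform: not given in the sources used here. Models without reads are not listed. A length is that of a model, and single reads may be shorter.

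A gene's count is the sum over its models. CPM used all reads of a library. Ratios used TMM-scaled library sizes (edgeR 4.0.16; DESeq2 1.42.0 size factors as an alternative) with 0.5 reads added, over genes with at least 10 reads, and folds carry the exact interval of the binomial share. The lowess curve (statsmodels 0.14.6, span 0.3) used genes with at least 20 reads. Models were matched between libraries by annotated identifier or chain of junctions; unspliced unannotated models were pooled per gene. An intron counts as kept where 1 exon of the model runs past both of its ends. Sequences and reading frames were read from GENCODE M21 transcripts, placed by their exon coordinates. The ratio and interval functions were tested on simulated data.

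The text names all 8 genes, models with at least 5% of a gene's reads that results turn on, listed pathway genes with at least 100 reads, and the 3 genes nearest Oaz1. Listed genes under 100 reads are also named where they had no reads or where the counts with the length curve turned on them. That naming was chosen after the data were seen. The genes and lists were chosen with earlier results of these data known. The alternatives were other scaling, pseudocounts, filters, a length correction, subsets of models and each library alone.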

Additional observations from a re-analysis of the deposited data

How the results depend on the processing

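With 1 group of 2 libraries every value describes these libraries, and genes under about 20 reads in a library (Azin1 and Amd1 in replicate 1, Srm in replicate 2, Sms in both) are limited by depth. No paired analysis was possible because there is only 1 group. Scaling by total counts moved the median log2 ratio of all genes by 0.47, to 0.46, and left 4 of the 8 genes at least 2-fold higher in replicate 1 in place of 5, and 2 higher in replicate 2. Of all 9809 genes, 3109 were then higher in replicate 1 and 4097 in replicate 2, against 3589 and 3252 with TMM scaling. With the length curve subtracted, 2 genes were higher in replicate 1, with or without the frameshift gap closed, and 3 or, with it closed, 2 in replicate 2. The 2 higher in replicate 1 include Sms, whose value with the curve subtracted is not meaningful. Sat1 then turned from -2.03 to 1.16 on the log2 scale, in both settings. Closing the gap does not change its length of 1275 nt, so for Sat1 these are not separate checks. That length is of a model with 5 of its 30 reads of replicate 2. With annotated models only, Oaz1 turned from -5.92 to 2.31, on 0 and 2 reads, and Sms from -2.33 to 0.48, on 2 and 3 reads, because few of their reads lie on annotated models. The count of genes with a shifted most used model, 5 of 7, was 3 of 7 with multi-exon models only, 2 of 7 without single-read models, and 0 of the 1 gene, Odc1, that could be compared on annotated models only. All genes were not recounted on these subsets of models. Of 64 recomputed log2 ratios 45 stayed within the counting interval and 7 changed sign: the 4 above and, in Oaz2, which is under 2-fold at -0.80, 2.79 and 0.63 with the length curve (without and with the gap closed) and 2.31 on annotated models. All 8 genes stayed within the counting interval with DESeq2 size factors, with either pseudocount and with multi-exon models only. The size factors and pseudocounts hardly change the main setting. With total counts 5 of 8 stayed, on annotated models 4, and with the length curve 2, with or without the gap closed. On annotated models only, the mean level of Oaz1 and that of Oaz2 came to 1.70 CPM each. The SD of 2 libraries is too wide to show a change in a mean level, so no tally of levels is given. With the length curve, 5 listed pathway genes in place of 12 were 2-fold higher in replicate 1, of 18 with a length. Of the recomputed shares of most used models 24 stayed within the counting interval and 13 moved, and of the recomputed exon inclusions 19 stayed and 18 moved; the most used models of Oaz1, Oaz2 and Sms are not annotated, so they have no share among annotated models.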

Other observations

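The gap at the frameshift site was looked for in other genes, after it had been seen in Oaz1 and Oaz2. GENCODE M21 holds 284 transcripts of 242 genes with a gap of at most 10 nt between exons, and 41 of these genes had at least 10 reads. No counted model of either library had a junction of at most 10 nt (the shortest was 31 nt). Reads whose chain matches such a transcript once the gap is closed were found in 10 genes, with 3414 reads in replicate 1 and 148 in replicate 2, and 98.3% of them were of Oaz1 and Oaz2. Next came Nadk2, a mitochondrial NAD kinase, with 15 of 41 and 25 of 55 reads. A table restricted to annotated transcripts would therefore list Oaz1 at 0 and 2 reads in place of 3402 and 56.

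A few reads joined a polyamine gene to a neighbour. In 2 reads of replicate 1 and 4 of replicate 2, chains of 6 exons led from an exon of Rbpms2 (chr9:65630559-65630897, an annotated exon edge on the same strand) into Oaz2. These chains differed: 1 of them held 1 and 4 reads, and another, with an unannotated splice site, held 1 and 0. In replicate 2, 1 read of 12 exons joined Masp2 and Srm. In replicate 1, 1 read of Oaz2 ended on an unannotated exon inside Zfp609, which lies on the opposite strand.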
